A study of Rattus norvegicus with 12 samples.

Results

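Tnf, its receptors Tnfrsf1a and Tnfrsf1b, the death receptors Fas and Tnfrsf10b, and the proteins that gather on their cytoplasmic tails, Fadd, Tradd, Ripk1 and Cflar, were followed in rat INS-1E cells, a β-cell line derived from an insulinoma. These 9 genes were taken by symbol from a table of 34034 genes, and all 9 were listed in it. Of them, 6 were above 1 CPM (counts per 1000000 counts of the library) in at least 2 of the 12 libraries and were among the 14324 genes tested. Tnf met this minimum only through the cytokine-challenged groups, and Tnfrsf1b, Tnfrsf10b and Tradd did not meet it. The CPM values given below for genes use library sizes scaled by TMM (trimmed mean of M-values) factors. Bulk RNA-seq was carried out on 4 groups of 3 numbered biological replicates. Untreated cells received no cytokine. IL-1βlow cells were preconditioned with IL-1β at 10 pg/ml for 72 h. CYT cells were challenged with 100 pg/ml IL-1β and 5 ng/ml IFN-γ for 16 h, and IL-1βlow + CYT cells received the preconditioning and then the challenge. Neither cytokine regimen contained TNF. All groups are a single clonal line in culture, so other islet and immune cells are not part of the model.

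Total counts ran from 15812640 to 20246806 per library. The β-cell gene Ins1 lay between 6620 and 25800 CPM over all libraries, and 10 of 12 β-cell markers passed the filter. Their summed level was 43000 to 49900 CPM in untreated, 38300 to 44900 in IL-1βlow, 14000 to 14900 in CYT and 20000 to 25600 CPM in IL-1βlow + CYT libraries. Markers of T or NK cells passed the filter for 2 of 9 genes, and those of alpha, delta or PP cells, of endothelial or stromal cells and of acinar or ductal cells for 1 of 6 genes each. The alpha-cell gene among them was Gcg, at 24.2 to 367 CPM over all libraries. The sum of its list was 185 to 367 CPM in untreated, 155 to 259 in IL-1βlow, 24.2 to 63.1 in CYT and 73.3 to 151 CPM in IL-1βlow + CYT libraries. In bulk samples, fewer cells of a type and less RNA per cell cannot be told apart.

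TNF is a cytokine made as a membrane protein and released by proteolysis, and it signals through Tnfrsf1a, which carries a death domain, and Tnfrsf1b, which does not. On Tnfrsf1a, Tradd and Ripk1 build a complex that leads to NF-κB activation, and a later complex with Fadd and caspase-8 can start apoptosis. Fas and Tnfrsf10b, the receptors of Fas ligand and TRAIL, recruit Fadd and caspase-8 directly, and Cflar, which encodes c-FLIP, holds caspase-8 in check. In β-cells, Fas is known to be induced by IL-1β and is studied as a route of immune-mediated killing.

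Tnf and Fas were the members with the largest differences between groups, and their promoters are shown for that reason, as the 250 bases before the start of the gene in RefSeq (assembly GRCr8). The Tnf stretch is chr20:3626435-3626684 and the Fas stretch chr1:241211905-241212154, both on the plus strand. Capitals mark the matches of a loose κB motif, GGG and CC separated by any 5 bases, on either strand.
Tnf: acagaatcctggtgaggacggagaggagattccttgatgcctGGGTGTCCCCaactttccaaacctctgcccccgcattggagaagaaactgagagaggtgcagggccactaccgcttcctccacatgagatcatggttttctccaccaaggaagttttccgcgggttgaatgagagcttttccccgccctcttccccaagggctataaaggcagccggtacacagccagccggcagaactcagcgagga
Fas: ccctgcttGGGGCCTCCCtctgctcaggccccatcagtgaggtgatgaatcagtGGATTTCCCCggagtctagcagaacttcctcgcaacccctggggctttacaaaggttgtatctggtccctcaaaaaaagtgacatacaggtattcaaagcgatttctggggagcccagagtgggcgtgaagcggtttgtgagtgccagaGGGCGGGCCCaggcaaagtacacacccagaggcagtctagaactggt

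The Tnf stretch held 1 match, starting 208 bases before the gene start, and the Fas stretch held 3 matches, starting 242, 196 and 47 bases before it. The same motif was present in 42.3% of 33469 RefSeq promoters of this length. A GAS motif (TTC and GAA separated by any 3 bases), to which STAT factors bind, was found in 7.67% of promoters, and an IRF motif (GAAA and GAAA separated by any 2 bases) in 3.41%, and neither was in the Tnf or Fas stretch on either strand. Of the 9 members, 7 had a promoter entry. Fadd had 1 and Tnfrsf1b 3 matches of the κB motif, Tnfrsf1b also had 1 match of the IRF motif, and Tnfrsf1a, Ripk1 and Cflar had no match of any of the 3 motifs.

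Tnf, the ligand, was close to undetected in cells that were not challenged and clearly present after CYT. Its counts were 1, 1 and 0 in the untreated libraries and 0 in all 3 IL-1βlow libraries, where 3 counts correspond to 0.149 to 0.185 CPM. The CYT libraries held 159, 119 and 165 counts (8.64, 6.94 and 8.43 CPM), a mean of 8.003 CPM ± 0.930 (SD, n = 3). The IL-1βlow + CYT libraries held 343, 287 and 286 counts (20.9, 14.3 and 17.0 CPM), a mean of 17.4 CPM ± 3.31 (SD, n = 3). Every challenged library lay above every unchallenged one, and every IL-1βlow + CYT library lay above every CYT library.

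Set against 3 counts per library, Tnf was at least 45.1-fold higher in CYT than in untreated cells and at least 98.0-fold higher in IL-1βlow + CYT cells. Tnf passed the thresholds in both comparisons (edgeR quasi-likelihood test, Benjamini-Hochberg adjusted p), but it was tested only because the challenged groups brought it past the filter, so it had to differ and these calls support nothing further. Tnf mRNA was 2.17-fold higher in IL-1βlow + CYT than in CYT cells, a log2 fold change of 1.11 (SE 0.19) with an adjusted p of 3.4e-04. This passed the minimum of 1 on the log2 scale, but without IL-1βlow + CYT replicate 1 the log2 fold change was 0.93 (adjusted p = 0.003) and fell short of it. The interaction, which asks whether the effect of CYT differed after preconditioning, rests for Tnf on groups with at most 1 count and gave an adjusted p of 0.075.

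Tnf is best known as a product of macrophages, so the macrophage markers are given beside it. Of 10 such markers 3 passed the filter, and their summed level over the list was 1.30 to 1.72 CPM in untreated, 0.872 to 1.30 in IL-1βlow, 2.39 to 3.64 in CYT and 4.50 to 5.88 CPM in IL-1βlow + CYT libraries. Ptprc (CD45), Itgam, Tyrobp and Cd14 had 0 counts in every library. Adgre1 (F4/80) had 0 to 1 count in untreated, 0 in IL-1βlow, 14 to 36 in CYT and 37 to 58 in IL-1βlow + CYT libraries. The other markers past the filter moved differently. Csf1r had 9 to 13 counts in untreated, 1 to 9 in IL-1βlow, 1 to 5 in CYT and 21 to 32 in IL-1βlow + CYT libraries. Cd68 had 5 to 19, 5 to 16, 17 to 22 and 12 to 18 counts in the same order. The part of these markers in the Tnf result was not tested.

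**Figure D1:**
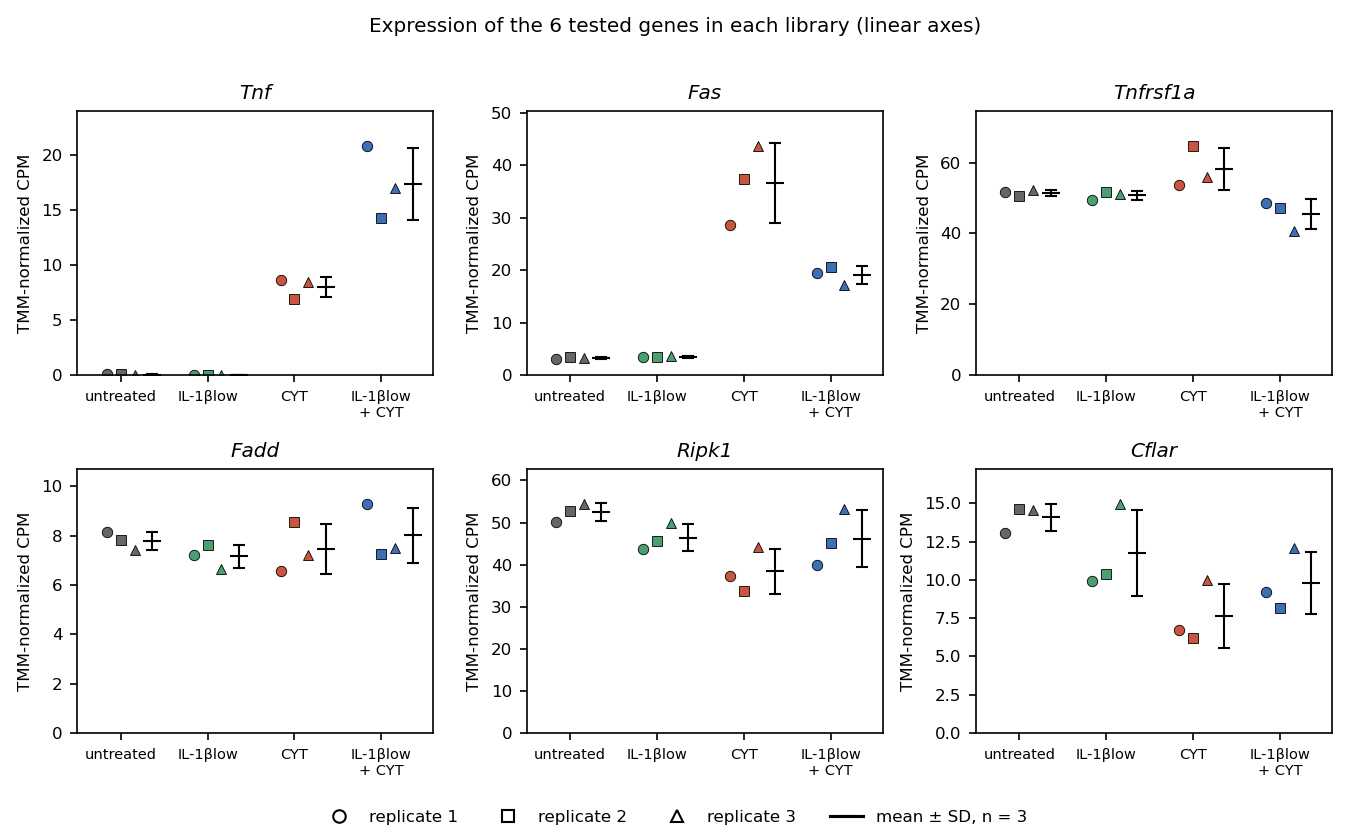
Levels of the 6 tested members in each library, in CPM on axes of their own, with 3 points per group and a bar at the group mean with the SD. Tnf was highest in the 3 IL-1βlow + CYT libraries (14.3 to 20.9 CPM), while Fas was highest in the 3 CYT libraries (28.7 to 43.8 CPM).

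Fas, the death receptor for Fas ligand, was present in all groups and was raised by CYT with and without preconditioning. Its level was 3.15, 3.37 and 3.28 CPM in the untreated libraries, a mean of 3.27 CPM ± 0.112 (SD, n = 3). The IL-1βlow libraries had 3.49, 3.37 and 3.70 CPM, a mean of 3.52 ± 0.167 (SD, n = 3), with the lowest of them just above the highest untreated library, both 3.37 CPM when rounded. The CYT libraries had 28.7, 37.4 and 43.8 CPM, a mean of 36.6 ± 7.57 (SD, n = 3). The IL-1βlow + CYT libraries had 19.4, 20.7 and 17.2 CPM, a mean of 19.1 ± 1.74 (SD, n = 3). Both challenged groups were separate from the unchallenged libraries and from each other.

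Fas rose 11.2-fold in CYT over untreated cells, a log2 fold change of 3.48 (SE 0.16, adjusted p = 4.3e-10), and 5.84-fold in IL-1βlow + CYT over untreated cells (log2 fold change 2.55, SE 0.16, adjusted p = 3.6e-08). With preconditioning alone its log2 fold change was 0.11 (SE 0.18, adjusted p = 0.81). In IL-1βlow + CYT against CYT cells the log2 fold change was -0.94 (SE 0.14, adjusted p = 8.0e-05), just under the minimum fold, and without CYT replicate 1 it was -1.12 (adjusted p = 1.1e-05) and past it. The interaction was -1.04 (SE 0.23, adjusted p = 0.003), which passed. It was -0.92 (adjusted p = 0.005) without CYT replicate 3 and -0.98 (adjusted p = 0.0059) without IL-1βlow + CYT replicate 3, both short of the minimum fold. On the log2 scale, 73.1% of the CYT change of Fas was left in IL-1βlow + CYT cells. Computed within replicate numbers 1, 2 and 3, this share was 82.3, 75.4 and 64% (SD 9.21, n = 3).

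Tnfrsf1a, the main TNF receptor with a death domain, ranged from 40.7 to 64.8 CPM over all libraries. It was at 51.6, 50.5 and 52.2 CPM in untreated libraries and 49.4, 51.6 and 51.2 CPM in IL-1βlow libraries. The CYT libraries had 53.6, 64.8 and 55.8 CPM, and the IL-1βlow + CYT libraries 48.6, 47.1 and 40.7 CPM. CYT libraries lay above the untreated range and IL-1βlow + CYT libraries below the CYT range, while the untreated and IL-1βlow ranges overlapped. The log2 fold change was 0.17 (SE 0.09, adjusted p = 0.12) for CYT against untreated cells and -0.35 (SE 0.09, adjusted p = 0.0061) for IL-1βlow + CYT against CYT cells, which was under the minimum fold.

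The other receptors were at or near 0. Tnfrsf1b had 0 counts in all 12 libraries, which allows at most 0.149 to 0.185 CPM per library for counting error alone. In RefSeq's GRCr8 annotation Tnfrsf1b lies wholly inside another gene, LOC103692519, which had 59 to 127 counts per library. Reads in such an overlap can be left out of the counting or given to the other gene, and the setting is not given in the sources used here. Of protein-coding genes wholly inside another gene, 20.5% of 927 had 0 counts in every library, against 17.3% of 19393 others. The low-count filter was passed by 46.9% of the former and 63.4% of the latter. The part of the overlap in the Tnfrsf1b counts was not tested. Tnfrsf10b, the TRAIL receptor with a death domain, had 3, 2 and 0 counts in untreated, 1, 3 and 2 in IL-1βlow, 0, 3 and 0 in CYT and 0, 0 and 3 in IL-1βlow + CYT libraries. The ranges of all groups overlapped. Tnfrsf10b overlaps Rhobtb2 in GRCr8, which had 461 to 469 counts in untreated and 1214 to 1411 in CYT libraries, a log2 fold change of 1.36 (SE 0.10, adjusted p = 4.1e-08), and the part of this overlap was not tested.

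Fadd, the adaptor that links Fas and the TNF receptor complex to caspase-8, passed in no comparison. It had 8.13, 7.81 and 7.42 CPM in untreated, 7.23, 7.61 and 6.66 in IL-1βlow, 6.57, 8.57 and 7.21 in CYT and 9.30, 7.26 and 7.49 CPM in IL-1βlow + CYT libraries. The CYT and IL-1βlow + CYT ranges overlapped each other and the untreated range. Its log2 fold change was -0.07 (SE 0.15, adjusted p = 0.72) for CYT against untreated and 0.11 (SE 0.15, adjusted p = 0.58) for IL-1βlow + CYT against CYT cells.

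Tradd, the adaptor that bridges Tnfrsf1a and Ripk1, was counted only a few times. It had 5, 3 and 5 counts in untreated, 3, 3 and 3 in IL-1βlow, 2, 0 and 2 in CYT and 2, 1 and 6 in IL-1βlow + CYT libraries. The 3 CYT libraries were below the 3 untreated ones. In a fit without the low-count filter, over 24221 genes, Tradd gave a log2 fold change of -1.67 for CYT against untreated cells with an unadjusted p of 0.1 and an adjusted p of 0.21 (edgeR quasi-likelihood test). Tradd also lies wholly inside another gene in GRCr8, Phaf1.

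**Figure D2:**
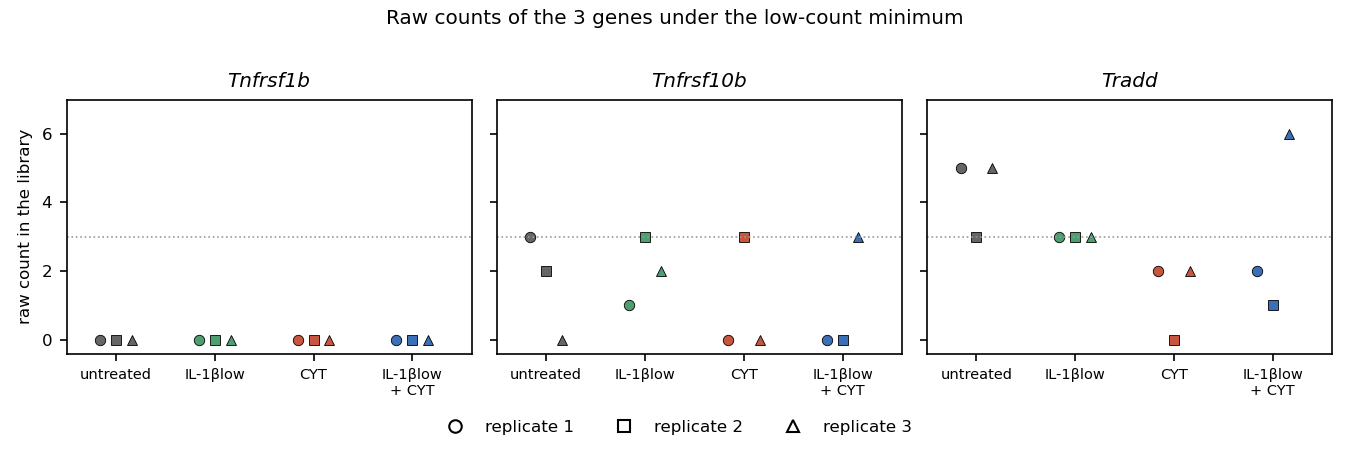
Counts per library of the 3 members that did not pass the low-count filter, with 3 points per group and a dotted line at 3 counts. Tnfrsf1b was at 0 in all 12 libraries, Tnfrsf10b at 0 to 3 counts and Tradd at 0 to 6 counts.

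Ripk1, the kinase at the branch between survival and death signalling under Tnfrsf1a, had its lowest values after CYT. It had 50.1, 52.9 and 54.5 CPM in untreated, 43.7, 45.7 and 50.0 in IL-1βlow, 37.3, 33.7 and 44.3 in CYT and 39.9, 45.1 and 53.3 CPM in IL-1βlow + CYT libraries. Untreated libraries lay above all CYT libraries, while the CYT and IL-1βlow + CYT ranges overlapped. The log2 fold change was -0.45 (SE 0.12, adjusted p = 0.0047) for CYT against untreated cells, under the minimum fold, and 0.26 (SE 0.12, adjusted p = 0.081) for IL-1βlow + CYT against CYT cells. Ripk1 overlaps Serpinb6a in GRCr8, which was at 30.7 CPM ± 1.94 in untreated and 36.5 ± 2.04 in CYT cells (SD, n = 3), and the part of this overlap was not tested.

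Cflar, the caspase-8 inhibitor, had the lowest log2 fold change of the 6 tested members in CYT against untreated cells. It had 13.1, 14.6 and 14.6 CPM in untreated, 9.95, 10.4 and 15.0 in IL-1βlow, 6.74, 6.18 and 10.0 in CYT and 9.18, 8.16 and 12.1 CPM in IL-1βlow + CYT libraries. All CYT libraries were below all untreated libraries, and replicate 3 was the highest in IL-1βlow, CYT and IL-1βlow + CYT cells. CYT against untreated cells gave a log2 fold change of -0.88 (SE 0.21, adjusted p = 0.0022), a ratio of 0.544, which missed the minimum fold. Without CYT replicate 3 the log2 fold change was -1.09 (adjusted p = 6.3e-04), past it. IL-1βlow + CYT against CYT cells gave 0.35 (SE 0.21, adjusted p = 0.18). Cflar overlaps Casp8 in GRCr8, which was low in all groups at 11 to 30 counts per library, and the part of this overlap was not tested.

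Tnfrsf1a, Fadd, Ripk1 and Cflar passed the thresholds in none of the remaining comparisons. The log2 fold change of IL-1βlow against untreated cells was -0.02 for Tnfrsf1a (SE 0.09, adjusted p = 0.94), -0.12 for Fadd (SE 0.15, adjusted p = 0.73), -0.18 for Ripk1 (SE 0.12, adjusted p = 0.50) and -0.26 for Cflar (SE 0.21, adjusted p = 0.56). IL-1βlow + CYT against untreated cells gave -0.18 for Tnfrsf1a (SE 0.09, adjusted p = 0.20), 0.04 for Fadd (SE 0.15, adjusted p = 0.88), -0.19 for Ripk1 (SE 0.12, adjusted p = 0.29) and -0.53 for Cflar (SE 0.21, adjusted p = 0.086). The interaction was -0.33 for Tnfrsf1a (SE 0.13, adjusted p = 0.062), 0.23 for Fadd (SE 0.21, adjusted p = 0.43), 0.44 for Ripk1 (SE 0.17, adjusted p = 0.054) and 0.61 for Cflar (SE 0.30, adjusted p = 0.12). None of these 12 values passed, which does not show that the groups were alike.

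**Figure D3:**
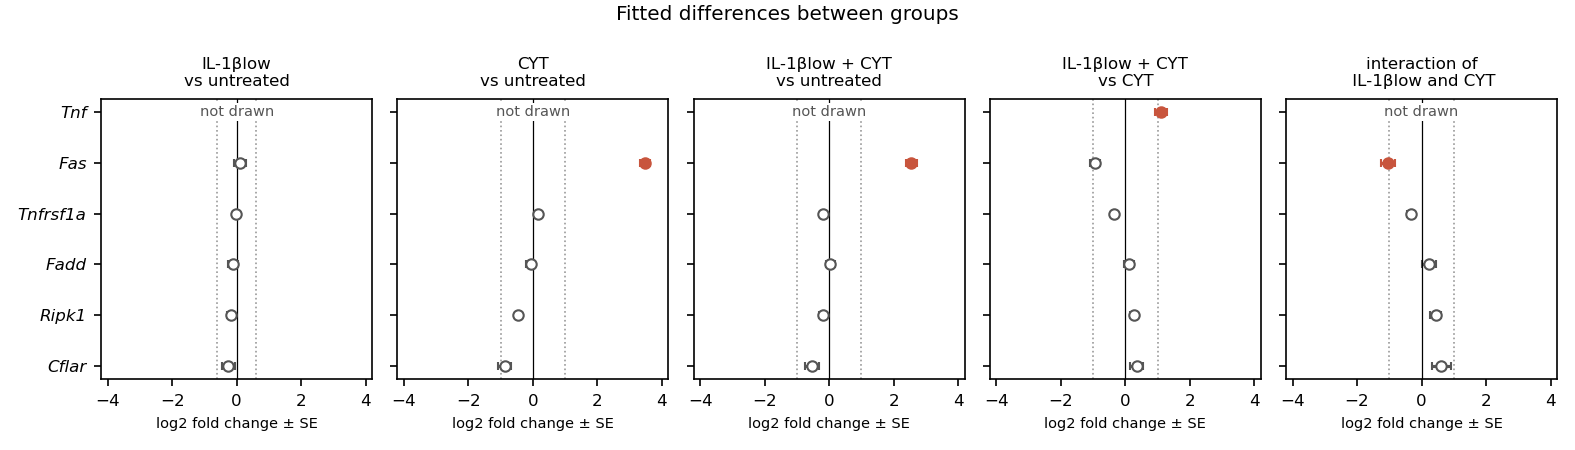
Log2 fold changes of the tested members with their standard errors, in 1 panel per comparison (4 pairwise comparisons and the interaction); dotted lines mark the minimum fold, and filled points passed. Tnf is drawn in 1 panel only because its unchallenged groups had at most 1 count. Fas lies at 3.48 for CYT against untreated cells and at -1.04 in the interaction.

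Over the 6 tested members, preconditioning alone changed 0 genes past an adjusted p of 0.01 and a log2 minimum of 0.6, where 0.433% of all tested genes passed. At an unadjusted p under 0.05 the number was also 0, and DESeq2 and edgeR's exact test each called 0. CYT raised 2 members, Tnf and Fas, where 21.6% of all genes passed the thresholds in either direction and 10.0% as higher. IL-1βlow + CYT against CYT cells gave 1 higher, Tnf, against a background of 12.5% (6.54% higher). IL-1βlow + CYT against untreated cells gave 2 higher, Tnf and Fas, against 5.99% (3.85% higher). The interaction had 1 lower, Fas, against 10.7% (5.20% lower). Tnf had to differ between challenged and untreated cells because of the filter, so its place in the counts of those comparisons supports nothing further. Without Tnf, Fas alone passed the thresholds there. CYT and IL-1βlow + CYT share the untreated samples as a reference, so these comparisons are not independent. At an adjusted p under 0.01 with no fold minimum, 4 members passed for CYT against untreated cells, where 49.7% of all genes did, 3 for IL-1βlow + CYT against CYT cells, where 36.3% did, and 2 for IL-1βlow + CYT against untreated cells, where 13.8% did. The interaction gave 1, where 22.6% of all genes passed, and preconditioning alone 0, where 0.503% did.

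The ranges of the 3 libraries per group were also compared. Tnf is counted, though it had to differ between challenged and untreated cells because of the filter. For CYT against untreated cells they did not overlap for 5 of the 6 members, Tnf, Fas and Tnfrsf1a higher and Ripk1 and Cflar lower, where 69.3% of all genes did not overlap (34.0% higher and 35.3% lower). For IL-1βlow + CYT against CYT cells they did not overlap for 3, Tnf higher and Fas and Tnfrsf1a lower, against 54.4% of all genes (26.8% and 27.6%). For IL-1βlow + CYT against untreated cells they did not overlap for 4, Tnf and Fas higher and Tnfrsf1a and Cflar lower, against 37.3% (20.2% and 17.1%). For preconditioning alone they did not overlap for 2, Fas higher and Ripk1 lower, against 23.7% (13.0% and 10.6%).

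The surrounding pathway was described through 70 further genes in 6 lists, of which 60 were tested. CYT raised 22 and lowered 1 of the 60, against 10.0% of all genes higher and 11.6% lower. In IL-1βlow + CYT against CYT cells 2 were higher and 11 lower, against 6.54% and 5.92%, and the interaction gave 1 higher and 14 lower, against 5.48% and 5.20%. In IL-1βlow + CYT against untreated cells 13 were higher, against 3.85%, and none of the other 47 passed as lower, where 2.14% of all genes did. Preconditioning alone raised 2, against 0.265% of all genes higher, and the calls on the lower side were 0.168% of all genes. The median log2 fold change of the 60 was 0.39 for CYT against untreated cells and -0.19 for IL-1βlow + CYT against CYT cells, while over all genes it was -0.04 and 0.02.

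Of the 60, 6 met the filter only through challenged libraries (Ltb, Tnfsf15, Tnfrsf14, Cd40, Edar and Zbp1) and 3 of these, Tnfsf15, Edar and Zbp1, only through the CYT libraries where they are high, so they had to differ. Without the 6, the counts were 17 higher and 1 lower for CYT against untreated cells, 2 and 8 for IL-1βlow + CYT against CYT cells, 1 and 11 for the interaction, and 11 higher for IL-1βlow + CYT against untreated cells. For Ltb, Tnfsf15, Edar and Zbp1 the values are given with no p.

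Of 4 tested ligands, 2 rose with CYT, Ltb and Tnfsf15, against 10.0% of all genes. These 2 met the filter only through challenged libraries and had to differ. In IL-1βlow + CYT against CYT cells 1 ligand was higher, Tnfsf10, against 6.54% of all genes. Ltb, lymphotoxin beta, went from 0.433 CPM ± 0.138 (SD, n = 3) in untreated to 183 ± 49.4 after CYT, and to 97.9 ± 13.7 after both treatments. On the log2 scale the difference was 8.70 (SE 0.28) for CYT against untreated cells. Tnfsf10, which encodes TRAIL, was at 1.37 CPM ± 0.459 in CYT and 4.94 ± 1.91 in IL-1βlow + CYT cells (log2 fold change 1.83, SE 0.38, adjusted p = 0.0011), while its receptor Tnfrsf10b was at 0 to 3 counts. Tnfsf15 had 0 counts in untreated and 18 to 64 counts in CYT libraries, at least 11.9-fold higher, and without CYT replicate 2 or 3 it no longer passed the filter. Faslg, the ligand of Fas, had 2 to 6 counts in all but the CYT libraries, where it had 8 to 9, and was not tested.

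Of 10 tested receptors and decoys, 8 rose with CYT, against 10.0% of all genes. In IL-1βlow + CYT cells 4 were lower than in CYT cells, against 5.92%. Cd40 and Edar, which met the filter only through challenged libraries, are in both counts. Cd40, which Cd40 ligand engages, had 1 count in each untreated library and was at 68.3 CPM ± 13.7 in CYT and 20.4 ± 1.61 in IL-1βlow + CYT cells. It was at least 385-fold higher in CYT and at least 115-fold higher in IL-1βlow + CYT than in untreated cells, and its log2 fold change between the challenged groups was -1.74 (SE 0.17, adjusted p = 1.9e-06). Tnfrsf11b, osteoprotegerin, a decoy for TRAIL and RANKL, went from 2.70 CPM ± 0.542 in untreated to 82.7 ± 20.5 in CYT and 53.9 ± 17.7 in IL-1βlow + CYT cells, 4.32 on the log2 scale in the last against untreated cells (SE 0.30, adjusted p = 8.8e-08). Relt, a TNF receptor family member, rose in IL-1βlow alone, from 42.5 CPM ± 1.52 to 85.1 ± 11.5 (log2 fold change 1.00, SE 0.11, adjusted p = 5.6e-04), and was at 228 ± 12.6 in CYT and 271 ± 36.8 in IL-1βlow + CYT cells. Edar had 13 to 32 counts in CYT and 2 to 8 in IL-1βlow + CYT libraries, a fitted log2 fold change of -1.86 (SE 0.52). The call held in 6 of 12 fits that each left out 1 library, and DESeq2 did not make it. Without CYT replicate 1 or 3, Edar no longer passed the filter.

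Of 11 tested adaptors and complex partners, 4 rose with CYT, against 10.0% of all genes. In IL-1βlow + CYT cells 4 were lower than in CYT cells, against 5.92%. Both counts include Zbp1, which met the filter only through the CYT libraries. Zbp1, a nucleic acid sensor that binds Ripk1 and Ripk3, had 19 to 31 counts in CYT and 0 in IL-1βlow + CYT libraries, at least 7.42-fold lower. Ripk3, the kinase that acts after Ripk1 in necroptosis, had at most 3 counts in every library. Of 20 tested ubiquitin and kinase checkpoints on Ripk1, 4 rose with CYT, against 10.0% of all genes. In IL-1βlow + CYT cells 1 was lower than in CYT cells, close to the share of 5.92% over all genes.

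Of 8 tested caspases and mitochondrial links, 2 rose with CYT, against 10.0% of all genes. In IL-1βlow + CYT against CYT cells 1 was higher and 1 lower, against 6.54% and 5.92%. Casp6, an executioner caspase, was higher in IL-1βlow + CYT than in CYT cells (log2 fold change 1.01, SE 0.20, adjusted p = 8.8e-04), a call that held in 5 of 12 fits that each left out 1 library and that DESeq2 did not make.

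The list for ligand and receptor shedding held 7 tested genes. With CYT 2 rose, against 10.0% of all genes, and 1 was lower in IL-1βlow + CYT than in CYT cells, against 5.92%. Rhbdf1 and Rhbdf2 encode the iRhom proteins that carry the protease Adam17 to the cell surface. Rhbdf1 went from 3.29 CPM ± 0.509 in untreated to 45.0 ± 8.74 in CYT and 14.5 ± 0.845 in IL-1βlow + CYT cells, with an interaction of -2.34 (SE 0.23, adjusted p = 8.0e-06). Rhbdf2 rose in IL-1βlow alone, from 11.0 CPM ± 1.57 to 20.7 ± 1.13 (log2 fold change 0.92, SE 0.13, adjusted p = 0.0019), and without untreated replicate 1, untreated replicate 3 or IL-1βlow replicate 1 it kept a log2 fold change of 0.82, 0.90 and 0.90 while the adjusted p was 0.02, 0.019 and 0.016, over the threshold. Adam17, which releases Tnf, gave a log2 fold change of -0.15 (SE 0.12, adjusted p = 0.29) for CYT against untreated cells.

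**Figure D4:**
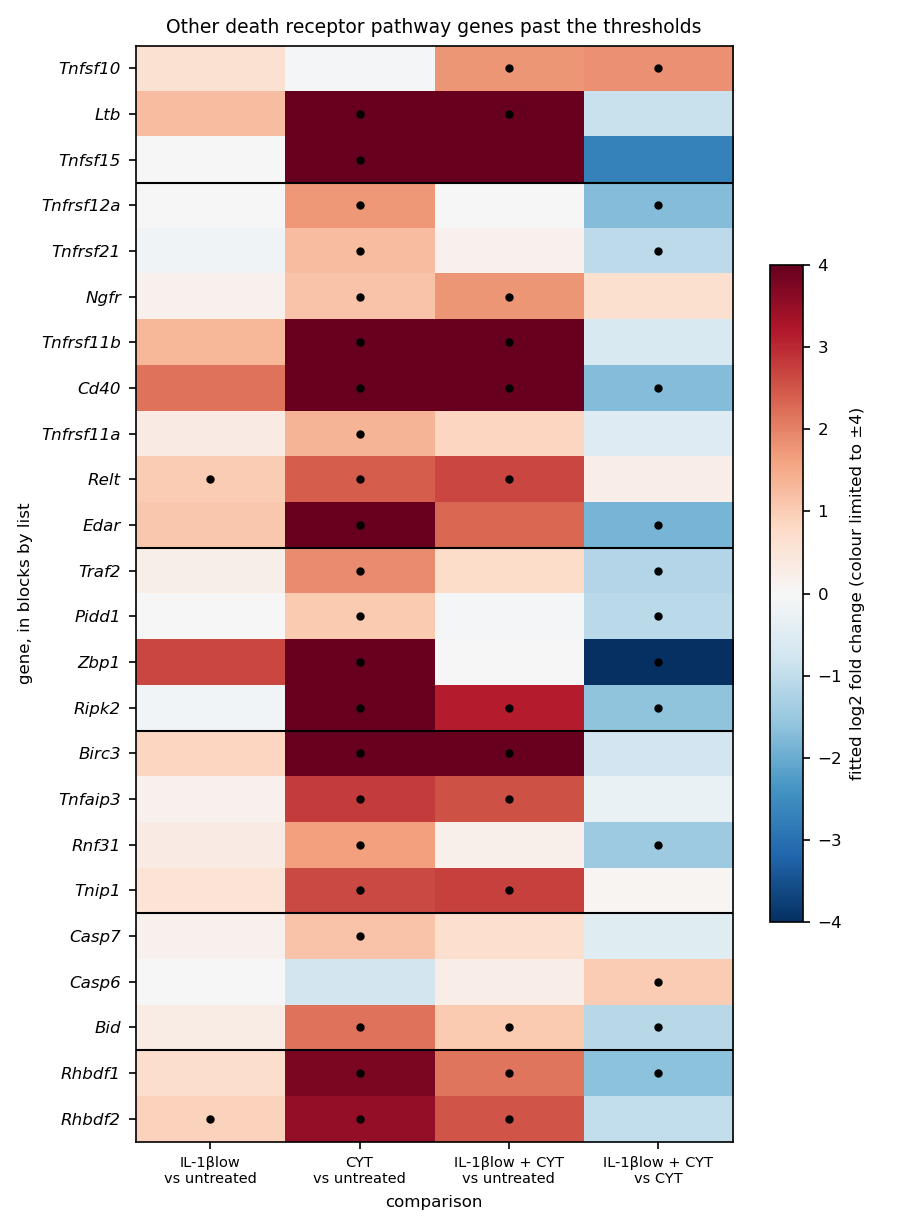
Log2 fold changes of 24 pathway genes that passed in at least 1 of 4 pairwise comparisons, as colour limited to 4 in each direction, with a dot where the thresholds were passed. The 22 dots drawn in the CYT against untreated column are rises, and 1 further gene that passed there is not drawn. Dots in the IL-1βlow + CYT against CYT column are mostly falls (11 of 13). Colours of genes at 0 counts in 1 group come from fitted values and are no bound.

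Genes whose levels moved like Tnf or Fas were sought only among tested genes with a mean log2 CPM above 2. Tnf itself lay under this minimum, so other genes as low as Tnf were not searched. Likeness was the root mean square difference between log2 CPM values, centred on the gene's own mean over the 12 libraries. In the unchallenged libraries the Tnf values rest on at most 1 count. The 5 genes with the smallest difference are given. For Tnf, over 11497 genes, these were Majin (0.60), Ubd (0.90), LOC100910973 (1.01), Ltb (1.01) and Stap2 (1.09). Among them only Ltb was lower in IL-1βlow + CYT than in CYT cells, at 97.9 against 183 CPM, where Tnf was higher. The Majin level was 0.217 CPM ± 0.0688 (SD, n = 3) without treatment, 31.4 ± 5.43 after CYT and 51.1 ± 0.893 after IL-1βlow and CYT. For Fas, over 11496 genes, they were Nfkb2 (0.16), Psmb8 (0.17), Gdpd5 (0.18), Nfkbia (0.20) and Ckmt1 (0.21). The Nfkb2 level was 26.3 CPM ± 1.74 (SD, n = 3) without treatment, 325 ± 39.0 after CYT and 188 ± 11.99 after IL-1βlow and CYT.

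**Figure D5:**
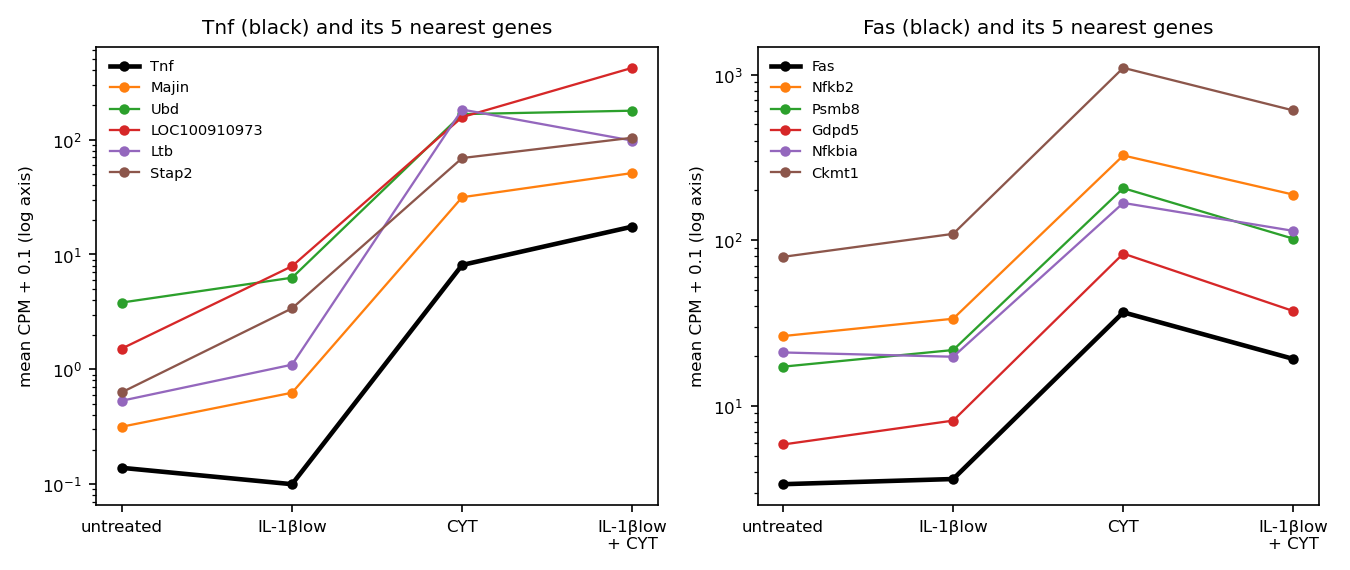
Mean CPM by group of Tnf and Fas and of the 5 genes most like each among those searched, on a log axis with 0.1 CPM added. The Tnf panel is highest in IL-1βlow + CYT cells for Tnf and for 4 of the 5 others, and all 6 lines of the Fas panel are highest in CYT cells.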

How the data were processed

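Total RNA of 12 INS-1E cultures was sequenced by the authors. Reads passed FastQC and rfastp, Rsubread placed them on mRatBN7.2, and featureCounts assigned them to genes. The deposited values are raw counts per gene symbol and library, with no normalization. The strand and overlap settings of the counting were not given in the sources used here. All 12 columns were matched to the labels by name, and 0 were left out.

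The software was R 4.3.3, edgeR 4.0.16, DESeq2 1.42.0 and limma 3.58.1. The filter kept the 14324 of 34034 genes that exceeded 1 CPM in 2 or more libraries, TMM factors were computed, and all 12 libraries entered 1 edgeR quasi-likelihood fit with 8 residual degrees of freedom and a common BCV (biological coefficient of variation) of 0.123. The 4 pairwise contrasts and the interaction were tested with Benjamini-Hochberg adjustment over all genes tested. The thresholds were 0.01 for the adjusted p and, for the size of the log2 fold change, 0.6 in IL-1βlow against untreated cells and 1 in the others. Standard errors came from the fold change and the F statistic. Where every library of the reference group had 3 counts or fewer, the fold was taken against 3 counts. Intervals and floors cover counting error only, since the libraries carried no molecular identifiers and reads are then not separate molecules. Rn45s, a ribosomal RNA gene, took 9.31% ± 1.16 (SD, n = 12) of counts and stayed in the totals.

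Replicates were counted separately: within a group, pairs differed beyond sampling noise (chi-square over degrees of freedom 7.11 to 27.5 in 12 pairs). Replicate numbers come from the labels. Deviations from the group means of same-numbered libraries correlated at 0.116, 0.475 and 0.453 between CYT and IL-1βlow + CYT cells, each over 0.1, so the numbers were taken to pair these groups. In the other comparisons at least 1 pair was below 0.1.

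The members and the gene lists were chosen with earlier results of these data known. Pathway genes were named as the 3 largest rises and falls among those past the thresholds in each comparison. Values of 1 gene that met this rule are not reported here. Faslg, Ripk3, Adam17 and Casp8 were named after their values were seen. Promoters, gene overlaps and gene names came from RefSeq tables of GRCr8, another assembly than the one used for counting. Tested on simulated CYT against untreated data of 13841 genes with 200 changed by 1.5 on the log2 scale, the fit tested 199 and recovered 196, with 0 false calls. No other comparison or size of change was simulated, so this does not bear on calls near the minimum fold. Results were also computed with the Wald test of DESeq2, with RLE size factors, with edgeR's exact test, with no low-count filter, on only the groups compared, with a replicate block, at another threshold and without each library in turn.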

Additional observations from a re-analysis of the deposited data

Results flagged for a closer look

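The effect of CYT on Fas differed between cells with and without IL-1βlow preconditioning, with an interaction of -1.04 on the log2 scale (SE 0.23, edgeR quasi-likelihood test, adjusted p = 0.003). Fas was higher in all 3 CYT libraries than in all 3 IL-1βlow + CYT libraries, and the interaction ran from -1.22 to -0.92 over fits that each left out 1 library.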

How the results depend on the processing

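Over the alternatives other than the threshold, 527 values of the 6 tested members were computed and 0 changed direction with a call. Tnf, which had to differ there, is in the member counts of challenged against untreated cells. With an adjusted p under 0.05 and no minimum fold, 4 members passed for CYT against untreated cells and 3 for IL-1βlow + CYT against CYT cells, and the pathway counts became 41, 32, 22 and 29 for CYT against untreated, IL-1βlow + CYT against CYT, IL-1βlow + CYT against untreated and the interaction, against 23, 13, 13 and 15. At that threshold 62.3%, 50.7%, 21.8% and 37.3% of all genes passed in these 4 comparisons. Without the low-count filter, 5 pathway genes passed for IL-1βlow against untreated cells in place of 2. Leaving out 1 library gave 2 to 3 members for CYT against untreated cells, 0 to 2 for IL-1βlow + CYT against CYT cells, 0 to 1 for the interaction and 1 to 3 pathway genes for IL-1βlow against untreated cells. With the replicate block, 0, 2, 1, 2 and 1 members passed in the 5 comparisons, the same numbers as without it, no member's call changed, and the pathway counts were 3, 23, 14, 13 and 16. The cause of these changes was not tested. Tnfrsf1b, Tnfrsf10b and Tradd had 0 to 6 counts, at which a difference was not detectable. The fit of only the groups compared gave no value for Tnf in IL-1βlow against untreated cells, where it was below the filter, and neither that fit nor the exact test applies to the interaction.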
